A study of Camellia sinensis with 24 samples.

Results

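The genes described here are the members of 2 families of nitrogen transporters in tea roots. Membership was set by annotation, as every gene whose description carries the Pfam domain of the proton-dependent oligopeptide transporter family (POT) or of the ammonium transporter family (AMT). Of the 48505 genes in the tables, 123 met this rule, 108 with the POT domain and 15 with the AMT domain. RNA was sequenced from roots of tea (Camellia sinensis) kept in a hydroponic split-root system with 12 plants to a box, in 24 libraries, 3 for each of 8 combinations of genotype and K supply. Genotype “1511” tolerates low K and genotype “1601” does not, and each is a single clone, so that a difference between them is a difference between 2 clones. After 60 days of preculture, the treatments lasted 5 days. On Sp.NK and Sp.SK, the roots of the same plants were divided between a side with 1 mM K2SO4 (Sp.NK) and a side with 0 mM (Sp.SK). On U.SK both sides held 0 mM K2SO4, and on U.NK both held 1 mM. All solutions held 1 mM NH4NO3, so the supply of nitrate and ammonium was the same in the 8 groups.

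Plant POT proteins are also called NPF or NRT1/PTR transporters. Many of them move a substrate into the cytosol together with protons. In Arabidopsis members of the family carry nitrate, small peptides or plant hormones, so the domain alone does not give a member's substrate. In Arabidopsis a member of this family also takes part in loading nitrate and K into the xylem. AMT proteins carry ammonium across the plasma membrane, ammonium is the nitrogen source that tea takes up most readily, and ammonium and K are cations of the same charge whose uptake by roots is linked. The gene identifiers matched no entry in the table of gene names used here, so the members are given by their identifiers and no single substrate is assigned to any of them.

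The 108 POT members were 101 annotated gene models and 7 genes newly assembled from the reads, and the 15 AMT members were 13 models and 2 new genes. They lie on 95 scaffolds of the tea genome assembly that the authors used. Annotated POT models had between 1 and 19 exons, with a median of 4, and 54 of them had 4 or 5. In 7 POT models another Pfam domain stood beside the transporter domain, such as a transaldolase domain in TEA000309 or a permease domain in TEA003888, and in those models reads of both domains were counted together. In 42 members the next member lay within 200000 bases on the same scaffold, which formed 18 neighbour groups. Copies that resemble each other can share reads, and how reads that match several genes were counted is not given in the sources used here.

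Expression passed the filter on low counts for 87 members, 77 POT and 10 AMT, which is 70.7% of them, against 73.3% of all genes. Of the 36 that did not pass, 13 had no read in any library and 23 POT members had at most 109 reads over all 24 libraries. Levels are given as FPKM, in which the count is divided by gene length and by 1 size per library, so that genes of different length can be compared. That size ran from 0.8064 times the total counts (“1511” U.SK replicate 1) to 1.111 times (“1511” Sp.SK replicate 1). The members that passed had a median FPKM of 2.78, against 5.15 for all genes tested. A mean of at least 10 FPKM was reached by 18 POT and 3 AMT members. Together the members took 0.1037% to 0.1912% of the reads of a library.

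A few genes held most of the POT transcripts. The 10 highest POT members held 59.92% of the summed POT FPKM (52.32% to 77.01% in single libraries). The highest was TEA030756, with a mean of 63.7 FPKM and a range of 42.7 to 94.7. It was followed by TEA003888 at 57.4, TEA007961 at 55.0 and TEA024019 at 48.5 FPKM. Next came TEA000309 at 47.7, TEA017621 at 46.5 and TEA021296 at 39.7, and then TEA032473 at 26, TEA025552 at 24.5 and TEA016375 at 23.5 FPKM. The spread within groups was often as large as the steps in this order. TEA007961 ranged from 24.1 to 124.1 FPKM over the libraries, whereas TEA000309 ranged only from 41.7 to 57.6. Of these 10 genes, TEA030756, TEA003888, TEA007961, TEA000309 and TEA016375 were called in none of the comparisons between conditions within a genotype. Summed over all POT members, the level was 693 ± 54.0 FPKM on U.SK and 706 ± 64.1 on U.NK in “1511” (SD, n = 3 each), and 845 ± 33.9 and 811 ± 20.8 in “1601” on U.SK and U.NK. On Sp.NK and Sp.SK the means were 655 and 658 FPKM in “1511”, and 702 and 704 FPKM in “1601”. In “1601” every Sp.NK and Sp.SK library (619 to 764 FPKM) lay below every library of U.NK (788 to 828) and U.SK (823 to 884). In “1511” the Sp.NK and Sp.SK libraries overlapped those of U.NK and U.SK. Differences between these sums were not tested.

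The depth ran from 13214833 to 26309637 reads on genes (median 18066086), and the fits used TMM normalization. A gene was called when the quasi-likelihood test of edgeR on all 24 libraries gave an adjusted p under 0.05 (Benjamini-Hochberg, 35557 genes). Each treatment had 3 replicates, but no source says that each library came from a box of its own, so the p-values measure the spread between these libraries. On the first principal component (52% of the variance) and the second, U.NK replicate 2 of “1511” lay among the U.SK libraries of “1511” and apart from the other U.NK libraries. The comparison of U.SK with U.NK in “1511” and its difference between genotypes are therefore also given without it. Genes of the Casparian strip protein family, known from the root endodermis (32 of 42 listed were tested), summed to 2570 to 2930 CPM, counts scaled to library size, on U.SK in “1511”, against 962, 1400 and 2390 on U.NK, the last in replicate 2. Singly, 0 of these genes were higher and 3 lower on U.SK relative to U.NK (median log2 fold change -0.34), and 9 were higher and 1 lower on Sp.SK relative to U.SK (median 0.34), the opposite direction to the sums. The MCM genes of DNA replication (11 of 15 tested) summed to 115 to 136 CPM on Sp.SK, 64.5 to 77.5 CPM on U.SK and 74.6 to 101 CPM on U.NK in “1511”, where 6 were higher and 0 lower on Sp.SK relative to U.SK and 0 higher and 4 lower on U.SK relative to U.NK. In “1601” the MCM sums were 107 to 190 CPM on all conditions. Of 39 core histone genes, the other list of dividing cells, 15 were higher and 0 lower on Sp.SK relative to U.SK in “1511”. In the difference between genotypes in this response, 9 were higher and 0 lower. Their sums in “1511” overlapped, with 2470 to 3520 CPM on Sp.SK and 2790 to 3150 CPM on U.SK. Of all genes, 17.4% were higher and 13.8% lower on Sp.SK relative to U.SK in “1511”, and 9.15% and 4.86% in that difference. On U.SK relative to U.NK in “1511”, 1.96% of all genes were higher and 5.88% lower. The leaf genes for chlorophyll a-b binding proteins (23 of 26 tested) summed to 125 to 348 CPM in “1511” and 297 to 1590 CPM in “1601”. Those for the RuBisCO small subunit (4 of 5 tested) summed to 111 to 291 CPM in “1511” and 195 to 395 CPM in “1601”, with overlap. Singly, 2 or 3 of these 4 were lower in “1511” than in “1601” on each condition, and 1 was higher on Sp.SK. Some of these lists move with comparisons below, and their part in the results was not tested. In whole roots, fewer cells of a type and less RNA per cell cannot be told apart.

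The ammonium transporter family was dominated by TEA003718 (scaffold 6205, bases 150527 to 152068, minus strand), whose coding sequence lies in a single exon. Its mean of 46.1 FPKM made it the highest AMT member and 7th of all members. In “1511”, it had 51.5, 24.2 and 41 FPKM on Sp.NK and 41.6, 46.5 and 22.3 FPKM on Sp.SK. On U.SK it had 1.77, 1.52 and 0.0829 FPKM, against 55.0, 3.73 and 54.0 FPKM on U.NK. The 3 U.SK libraries were lower than every other library of “1511”, and the low U.NK value of 3.73 was that of replicate 2. In “1601”, the gene had 49.7, 57.8 and 72.6 FPKM on Sp.NK and 61.9, 94.6 and 82.5 FPKM on Sp.SK. On U.SK it had 38.8, 64.3 and 76.4 FPKM, against 70.8, 41.7 and 52.3 FPKM on U.NK. The 4 groups of “1601” overlapped, and none of the comparisons within “1601” called the gene.

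TEA003718 fell on U.SK relative to U.NK in “1511” (log2 fold change -5.13 ± 0.79 SE, adjusted p = 0.00278 with edgeR). The reads behind the U.SK values were 33, 30 and 2, against 1664, 97 and 1446 on U.NK. The call held when any library was left out, and without U.NK replicate 2 the change was -5.68 (adjusted p = 4.25e-06 with edgeR). When edgeR was run on only the 6 libraries compared, the adjusted p was 0.277. On Sp.SK the gene was higher than on U.SK in “1511” (log2 fold change 5.10 ± 0.79 SE, adjusted p = 0.000286 with edgeR), a comparison that shares the U.SK libraries with the one before. In the genotype comparison on U.SK, it was lower in “1511” than in “1601” by a log2 fold change of -5.82 ± 0.81 SE (adjusted p = 8.56e-06 with edgeR), and no library of “1511” overlapped those of “1601”. On Sp.SK the genotypes did not overlap either, but the difference of -1.13 ± 0.63 SE was not called (adjusted p = 0.187 with edgeR), and on Sp.NK and U.NK the libraries overlapped.

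The remaining AMT members had lower mean levels. TEA032584 (scaffold 144) had a mean of 18.2 FPKM, ranged from 9.22 to 29.5 FPKM over the 24 libraries and was called in no comparison. TEA030668 had 6.31, 8.93 and 11.6 FPKM on U.SK in “1511”, against 19.7, 16.4 and 21.1 FPKM on U.SK in “1601”. These values did not overlap, and the gene was lower in “1511” on this condition (log2 fold change -1.12 ± 0.26 SE, adjusted p = 0.00121 with edgeR). A newly assembled AMT gene at bases 584268 to 616458 of the same scaffold 6751, 829 bases from TEA030668 and on the opposite strand, had 2.39, 3.24 and 3.46 FPKM on U.SK in “1511”, against 6.94, 6.36 and 12.8 FPKM in “1601”. It too was lower in “1511” (log2 fold change -1.55 ± 0.32 SE, adjusted p = 0.000536 with edgeR). TEA024685, a model of 8 exons, was lower in “1511” than in “1601” on U.SK, Sp.NK and U.NK, with log2 fold changes of -1.87, -1.42 and -1.61. In each of these 5 calls no library overlapped the other genotype, and all of them held when any library was left out.

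TEA030175, an AMT model of a single exon, was nearly absent from “1511”. It had 0 counts in the 6 libraries of Sp.NK and Sp.SK, 19, 15 and 0 counts on U.SK and 2, 6 and 0 counts on U.NK. A count of 0 allows up to 3 reads in a library. In “1601” it had between 42 and 285 counts in the 12 libraries, 1.38 to 7.73 FPKM, so that the genotypes did not overlap on any condition. The gene was called lower in “1511” on all 4 conditions, with adjusted p between 0.000151 and 0.0129 in edgeR. Its neighbour TEA030172, also with the AMT domain, had no read in any library. The low-expressed TEA003398 had 3 to 6 counts on U.SK in “1511”, against 12 to 16 counts on U.NK. It was higher in “1511” than in “1601” on Sp.SK, with 26, 18 and 10 counts against 7, 6 and 5 (log2 fold change 1.53, adjusted p = 0.00524 with edgeR), and its call on U.SK (-1.15, adjusted p = 0.0238) was kept in 3 of 6 fits without 1 library. The AMT members TEA018122 and TEA026838 and a newly assembled AMT gene on scaffold 2802 had means of 1.72, 1.04 and 1.87 FPKM and were called in no comparison.

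**Figure D1:**
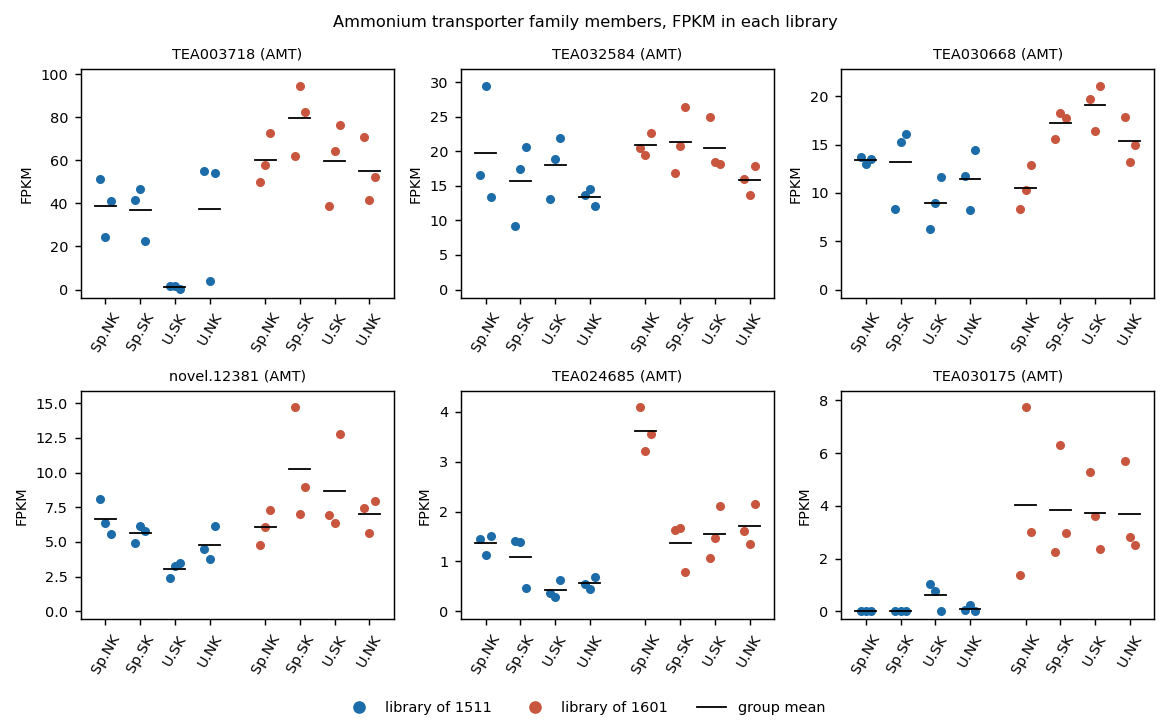
FPKM of 6 AMT members in each of the 24 libraries, with 1 panel per gene, the 4 conditions of “1511” (blue) to the left of those of “1601” (red), points for libraries and black bars for group means. TEA003718 is at or under 1.77 FPKM in the 3 U.SK libraries of “1511” and at 3.73 in U.NK replicate 2, while TEA030175 lies at or under 1.03 FPKM in all libraries of “1511”. The panel with another form of name is the newly assembled gene on scaffold 6751.

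Summed over the family, the AMT level in “1511” averaged 36.6 ± 7.51 FPKM on U.SK, against 72.5 ± 31.9 FPKM on U.NK (SD, n = 3 each). On Sp.NK and Sp.SK of “1511” the averages were 86.6 ± 8.70 and 76.9 ± 11.9 FPKM. The U.SK sums of “1511” ran from 28.6 to 43.5 FPKM and the U.NK sums from 35.7 to 91.4 FPKM, with overlap. In “1601” the group means lay between 104 and 137 FPKM. TEA003718 held 0.191% to 6.19% of the sum in the U.SK libraries of “1511”, 10.5% in U.NK replicate 2 and 29.2% to 62.3% in the other 20 libraries.

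The comparison of U.SK with U.NK asks which members respond to K starvation of the whole root system. In “1511” 12 of the 87 members tested were lower on U.SK and 0 were higher, 13.8% against 7.84% of all genes tested. Of all genes 5.88% were lower and 1.96% higher. The 12 were TEA003718 and 11 POT members. The median log2 fold change of all members tested was -0.10, against 0.00 over all genes. Without U.NK replicate 2, 17 members were called, 15 lower and 2 higher. Without U.NK replicate 3, U.SK replicate 1, U.SK replicate 2 or U.NK replicate 1, the counts were 2, 4, 5 and 7. Shares of all genes are not given for fits without a library, here or below, so those counts have no background. With edgeR on the 6 libraries alone, 0 members were called.

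Among the POT members the largest fall was in TEA024273 (scaffold 20036, bases 196679 to 214750, plus strand, 7 exons). It had 0.0744, 0.0701 and 0.0863 FPKM (2, 2 and 3 counts) on U.SK, against 1.38, 0.134 and 3.81 FPKM on U.NK. All U.SK libraries were lower than all U.NK libraries, again with replicate 2 the lowest of U.NK. The log2 fold change was -4.48 ± 1.24 SE (adjusted p = 0.0313 with edgeR), and without U.NK replicate 2 it was -5.04 (adjusted p = 0.00434 with edgeR). The call was lost without U.SK replicate 1, 2 or 3 and without U.NK replicate 1 or 3, where edgeR gave adjusted p = 0.124, 0.095, 0.0662, 0.0513 and 0.26.

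TEA025552 (scaffold 3650, bases 2136379 to 2149356, plus strand), a short model of 2 exons among the 10 highest POT members, had 2.89, 2.53 and 1.91 FPKM on U.SK, against 14.3, 5.00 and 15.9 FPKM on U.NK. The groups did not overlap, and the log2 fold change of -2.29 ± 0.37 SE (adjusted p = 0.00294 with edgeR) held when any library was left out. It and TEA003718 were the only members whose call on U.SK did so.

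TEA026573 (scaffold 2843, bases 316912 to 322097, plus strand) had 0.609, 0.144 and 0.314 FPKM on U.SK, against 1.53, 0.619 and 2.55 FPKM on U.NK in “1511” (log2 fold change -2.16 ± 0.53 SE, adjusted p = 0.0167 with edgeR). The groups only just did not overlap. The call was lost without U.SK replicate 2 (adjusted p = 0.0733 with edgeR) and without U.NK replicate 3 (0.151). The gene overlaps TEA026557 on the opposite strand, which had a mean of 1.37 CPM, and whether the reads were counted by strand is not given in the sources used here.

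The other 8 POT members called on U.SK in “1511” were TEA016268, TEA031425, TEA006338, TEA020860, TEA011962, TEA005583, TEA012189 and TEA024083, with log2 fold changes between -3.84 and -0.55. In the first 4 of them a U.SK library overlapped U.NK replicate 2. TEA016268, for example, had 0, 0.261 and 1.03 FPKM on U.SK, against 7.62, 0.762 and 11.4 FPKM on U.NK. TEA011962, the highest of the 8, had 4.02, 4.73 and 5.17 FPKM on U.SK, against 12.4, 6.13 and 33.0 FPKM on U.NK. Each of these 8 calls was kept without U.NK replicate 2 and lost without U.NK replicate 3, with adjusted p between 0.0961 and 0.344 in edgeR. All but that of TEA005583 were also lost without U.SK replicate 1 and without U.SK replicate 2. TEA031425, TEA006338, TEA020860 and TEA024083 were lost without U.NK replicate 1, and TEA031425 and TEA024083 without U.SK replicate 3.

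In “1601” the same comparison called 0 members with edgeR, and 0.0% of all genes. An unadjusted p under 0.05 was reached by 2 members (2.3%, against 2.88% of all genes). DESeq2 and limma voom called 1 member each, 1.23% and 1.15% of those tested, against 0.559% and 0.197% of all genes. TEA024273, for example, had 2.39, 8.40 and 2.71 FPKM on U.SK, against 6.22, 5.14 and 5.42 FPKM on U.NK in “1601”. When the response of “1511” minus that of “1601” was tested, 1 member was called, 1.15% against 0.45% of all genes, or 0.436% for lower genes alone. This was TEA003718, with a difference of -5.26 ± 0.99 SE (adjusted p = 0.0231 with edgeR). The call was kept in 4 of 12 fits without 1 library. It was lost without “1601” U.SK replicates 2 or 3, “1601” U.NK replicates 1, 2 or 3, “1511” U.SK replicates 1 or 2, or “1511” U.NK replicate 3, with the highest adjusted p at 0.0819 in edgeR. Without U.NK replicate 2 of “1511”, 13 members were called, all with the lower value in “1511”, with TEA003718 at -5.81 (adjusted p = 9.4e-05 with edgeR). The share of all genes called in that fit is not given here, so the rise from 1 to 13 has no background.

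**Figure D2:**
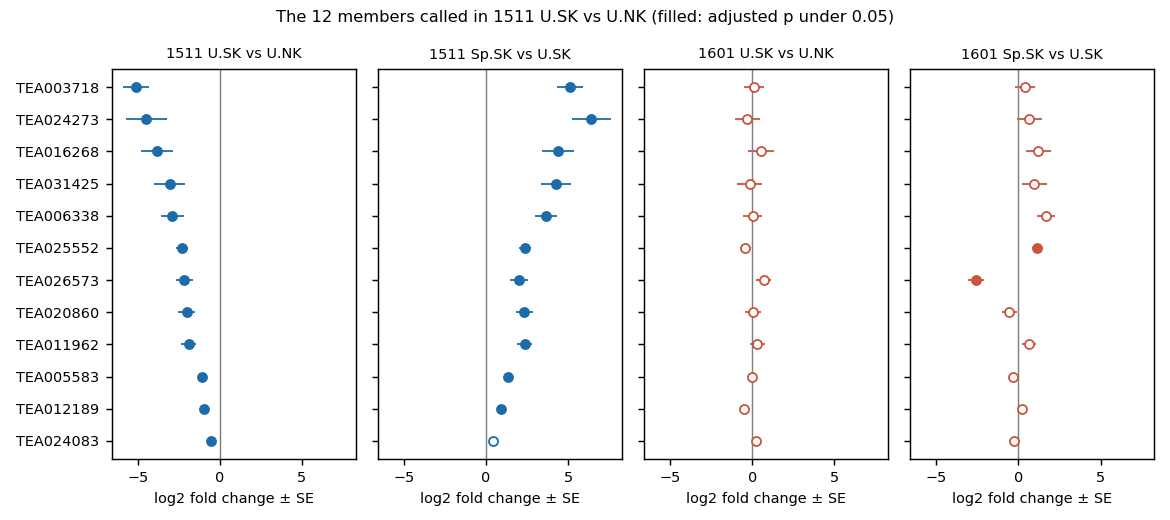
Log2 fold changes with their SE (x axis) of the 12 members called on U.SK against U.NK in “1511” (y axis), in 4 comparisons, with filled points for an adjusted p under 0.05. In “1511” all 12 lie below 0 on U.SK against U.NK and above 0 on Sp.SK against U.SK, which share the U.SK libraries. In “1601” none is filled on U.SK against U.NK.

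Sp.SK against U.SK sets roots in the same K-free solution side by side, where the rest of the root system had K or did not. In “1511” 23 members were higher on Sp.SK and 4 were lower, 31.0% of the members tested against 31.1% of all genes. The number of members called was therefore at the background, and the higher ones were 26.4% of the members against 17.4% of all genes. The lower ones were 4.6% of the members against 13.8% of all genes. Without Sp.SK replicate 1 or U.SK replicate 1, 17 and 16 members were called, 16 of them higher in each. The calls of 13 members held when any library was left out, and all 13 were higher on Sp.SK. They were TEA003718 and 12 POT members. The U.SK libraries of “1511” serve both this comparison and the one with U.NK, so the reversed direction of the 12 members above is not an independent result.

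TEA024273 showed the largest rise of the named POT members, with 10.1, 3.95 and 6.17 FPKM on Sp.SK in “1511”, against at most 0.0863 FPKM in each U.SK library. The groups lay far apart, and the log2 fold change was 6.41 ± 1.19 SE (adjusted p = 0.000945 with edgeR). TEA016268 (scaffold 435, bases 2486291 to 2495694, minus strand, 5 exons) had 12, 6.38 and 10.5 FPKM on Sp.SK, against 0, 0.261 and 1.03 FPKM on U.SK. Its log2 fold change was 4.38 ± 0.98 SE (adjusted p = 0.00283 with edgeR). TEA031425 (scaffold 3918, bases 366525 to 370535, minus strand, 5 exons) had 9.06, 2.73 and 3.68 FPKM on Sp.SK, against 0.458, 0.354 and 0.0322 FPKM on U.SK. Its log2 fold change was 4.27 ± 0.93 SE (adjusted p = 0.00243 with edgeR). In neither gene did the groups overlap.

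The high-expressed TEA011962 (scaffold 4229) had 23.8, 33.2 and 13.6 FPKM on Sp.SK, against 4.02, 4.73 and 5.17 FPKM on U.SK in “1511” (log2 fold change 2.35 ± 0.47 SE, adjusted p = 0.00147 with edgeR). TEA025552 had 15.3, 13.3 and 9.18 FPKM on Sp.SK, against at most 2.89 FPKM on U.SK (2.39 ± 0.37 SE, adjusted p = 0.000295 with edgeR). In both, the lowest Sp.SK library was above the highest U.SK library. The other rises that held without any library were those of TEA006338, TEA020860, TEA026573, TEA005583, TEA024084, TEA013384 and TEA012189, with log2 fold changes between 0.94 and 3.66. In 6 more POT members with no overlap between groups, TEA004575, TEA016631, TEA027675, TEA024100, TEA017807 and TEA005580, the rises were kept in only 2 to 4 of the 6 fits without 1 library. TEA024151 was called as well, with 28, 7 and 0 counts on Sp.SK, against 0 counts in each U.SK library, so no fold is given.

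Falls on Sp.SK in “1511” were small in the POT members called. TEA024019, the 4th highest POT member, had 35.0, 49.5 and 44.2 FPKM on Sp.SK, against 59.7, 59.3 and 81.6 FPKM on U.SK (log2 fold change -0.63 ± 0.21 SE, adjusted p = 0.0313 with edgeR). TEA021296 had 31.2, 40.1 and 36.9 FPKM on Sp.SK, against 57.4, 55.4 and 50 FPKM on U.SK (-0.57 ± 0.18 SE, adjusted p = 0.0194 with edgeR). The groups did not overlap in either gene. Both calls were lost without Sp.SK replicate 1 (adjusted p = 0.148 and 0.0995 with edgeR) and without U.SK replicate 1 (0.0515 and 0.0776). TEA024019 was also lost without Sp.SK replicate 3 (0.0586) or U.SK replicate 3 (0.141), and TEA021296 without U.SK replicate 2 (0.0655). TEA014284 was called at -1.06 ± 0.39 SE (adjusted p = 0.0424 with edgeR), a call kept only without U.SK replicate 2 and lost without any of the other 5 libraries (adjusted p 0.0654 to 0.143).

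Of the AMT members, TEA003718, TEA024685, TEA003398 and the new AMT gene on scaffold 6751 were higher on Sp.SK relative to U.SK in “1511”. TEA024685 had 1.40, 1.39 and 0.469 FPKM on Sp.SK, against 0.369, 0.278 and 0.627 FPKM on U.SK, with overlap. Its call (log2 fold change 1.35, adjusted p = 0.0191 with edgeR) was lost without Sp.SK replicates 1 or 2 or U.SK replicates 1 or 2 (adjusted p 0.0647 to 0.0919). TEA003398 (1.40, adjusted p = 0.0141 with edgeR) was lost without Sp.SK replicate 2 (0.0524) or U.SK replicate 1 (0.0619). The call of the new gene (0.90, adjusted p = 0.0415 with edgeR) was kept only without U.SK replicate 3 (highest adjusted p 0.145). TEA030175 was called on Sp.SK at 0 counts, but U.SK replicate 3 also had 0, and no fold is given. That call was lost without Sp.SK replicate 1 (adjusted p = 0.0501 with edgeR) or U.SK replicate 1 (0.0535).

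In “1601” the same comparison called 1 member higher and 11 members lower, 13.8% of the members against 6.82% of all genes, and all 12 were POT members. For lower genes alone, the shares were 12.6% and 4.24%, and for higher genes 1.15% and 2.58%. Between 4 and 7 members were called when 1 of the 6 libraries was left out, all of them lower, and 3 calls held throughout. TEA014284 (scaffold 3355, bases 772541 to 776070, minus strand, 4 exons) had 0.793, 0.639 and 0.692 FPKM on Sp.SK in “1601”, against 5.54, 3.08 and 5.47 FPKM on U.SK. The log2 fold change was -2.73 ± 0.40 SE (adjusted p = 0.000957 with edgeR). TEA031957 (scaffold 982, bases 1406111 to 1412147, minus strand, 4 exons) had 5.67, 5.90 and 7.03 FPKM on Sp.SK, against 28.0, 20.7 and 41 FPKM on U.SK (-2.28 ± 0.36 SE, adjusted p = 0.00143 with edgeR). TEA026573 had 0.352, 0.295 and 0.766 FPKM on Sp.SK, against 3.31, 2.19 and 3.28 FPKM on U.SK (-2.61 ± 0.48 SE, adjusted p = 0.00436 with edgeR).

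In these 3 genes every Sp.SK library of “1601” was lower than every U.SK library. TEA031957, like TEA026573, overlaps a gene on the opposite strand, TEA031968, which had a mean of 3.17 CPM. TEA029266 had 0.0282, 0.441 and 0.180 FPKM on Sp.SK, against 0.831, 0.917 and 4.23 FPKM on U.SK (-3.18 ± 0.82 SE, adjusted p = 0.0256 with edgeR). Its call was lost without Sp.SK replicate 1 (adjusted p = 0.123 with edgeR), Sp.SK replicate 3 (0.0714) or U.SK replicate 3 (0.162). The single rise was that of TEA025552, which had 41, 54.5 and 66.0 FPKM on Sp.SK, against 24.3, 29.0 and 19.5 FPKM on U.SK (1.14 ± 0.32 SE, adjusted p = 0.0386 with edgeR). The groups did not overlap, but this call of TEA025552 was lost whichever of the 6 libraries was left out (adjusted p 0.0597 to 0.131). The other 7 lower members were TEA013384, TEA004575, TEA028859, TEA032473, TEA021139, TEA017621 and TEA018283, with calls kept in 1 to 3 of 6 such fits.

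The response to Sp.SK against U.SK differed between the genotypes in 15 members, 14 of them with the higher value in “1511”, 17.2% of the members against 14.0% of all genes. For differences higher in “1511” the shares were 16.1% of the members and 9.15% of all genes, and for those lower in “1511” 1.15% and 4.86%. The count was 9 without U.SK replicate 1 of “1511”, and 9 calls held when any of the 12 libraries was left out. The clearest was TEA026573, which rose on Sp.SK in “1511” (2.00 ± 0.52 SE) and fell in “1601” (-2.61 ± 0.48 SE), a difference of 4.61 ± 0.71 SE (adjusted p = 0.000595 with edgeR). Its FPKM on Sp.SK and U.SK in “1511” were 1.72, 1.62 and 0.848, against 0.609, 0.144 and 0.314. TEA013384 (scaffold 3611) also moved in opposite directions. It had 10.4, 8.06 and 11.4 FPKM on Sp.SK, against 3.39, 3.85 and 6.99 FPKM on U.SK in “1511”, and 5.01, 5.61 and 6.87 FPKM on Sp.SK, against 12.1, 12 and 11.6 FPKM on U.SK in “1601”. The groups did not overlap in either genotype, and the difference was 2.11 ± 0.40 SE (adjusted p = 0.00235 with edgeR).

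TEA004575 (scaffold 1878) had 1.35, 0.582 and 0.850 FPKM on Sp.SK, against 0.283, 0.178 and 0.0728 FPKM on U.SK in “1511”. In “1601” it had 0.386, 0.548 and 0.356 FPKM on Sp.SK, against 1.28, 2.18 and 3.08 FPKM on U.SK. The directions were opposite with no overlap, and the difference was 4.78 ± 0.94 SE (adjusted p = 0.003 with edgeR). For TEA024273 the difference was 5.74 ± 1.46 SE (adjusted p = 0.014 with edgeR), and for TEA003718 it was 4.69 ± 0.98 SE (adjusted p = 0.00449 with edgeR), with the “1601” groups overlapping in both. TEA029267 was called at 4.96 ± 1.57 SE (adjusted p = 0.04 with edgeR), but it ranged from 4.38 to 22.4 FPKM on Sp.SK and from 0.204 to 3.27 FPKM on U.SK in “1511”. That call was kept in 4 of 12 fits and lost without any of the 3 U.SK libraries or Sp.SK replicate 1 of “1511”, or Sp.SK replicates 1 or 3 or U.SK replicates 2 or 3 of “1601”, with the highest adjusted p at 0.135.

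**Figure D3:**
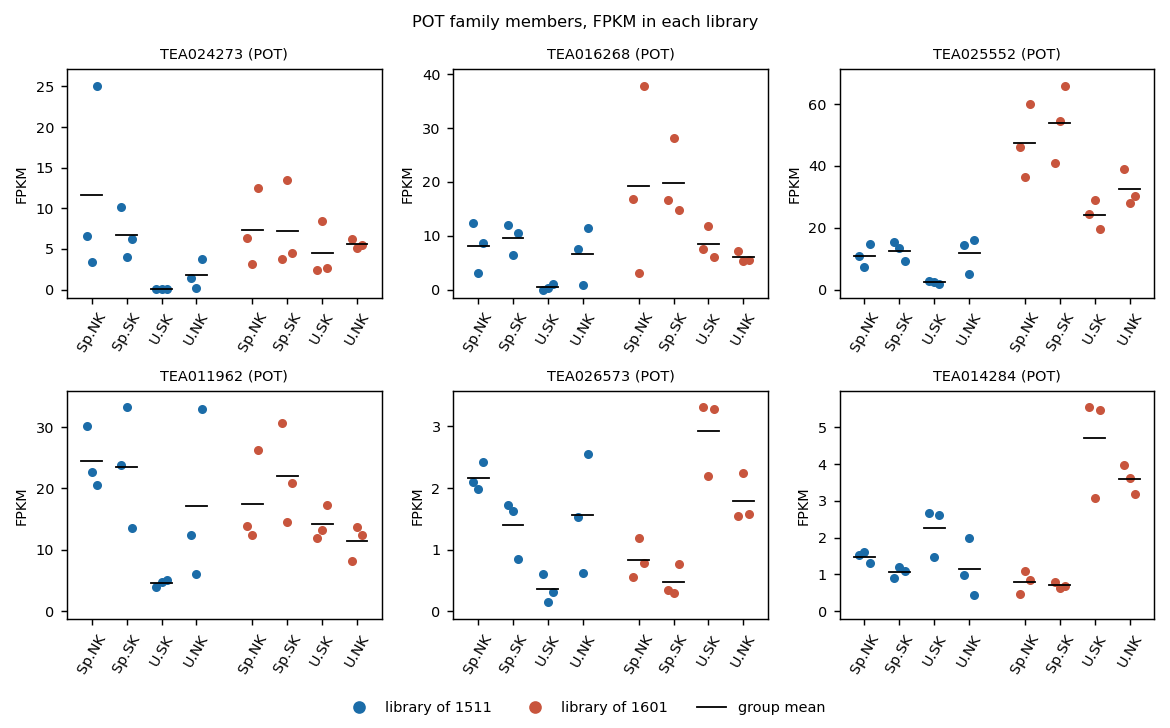
FPKM of 6 POT members in each of the 24 libraries, with 1 panel per gene, the 4 conditions of “1511” (blue) to the left of those of “1601” (red), points for libraries and black bars for group means. TEA024273, TEA016268, TEA025552 and TEA011962 are lowest on U.SK in “1511”, and TEA014284 and TEA026573 are lower on Sp.SK relative to U.SK in “1601”.

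Sp.NK against U.NK asks whether roots with K respond to the lack of K in the rest of the root system. In “1511” 0 members were called with edgeR, against 4.61% of all genes, and 19 members had an unadjusted p under 0.05, 21.8% against 25.4% of all genes. DESeq2 called 5 members, 6.85% of those it tested against 2.84% of all genes, and limma voom called 24, 27.6% against 31.6%. Without U.NK replicate 3, edgeR called 13, with no share of all genes given beside it. That fit kept U.NK replicate 2, while replicate 3 lay near the Sp.NK libraries on the principal components. Over the 6 fits without 1 library, the counts ran from 0 to 13. TEA016631, for instance, had 0.708, 0.315 and 1.82 FPKM on Sp.NK, against 0.0498, 0 and 0.225 FPKM on U.NK (adjusted p = 0.0595 with edgeR), with no overlap. In “1601” 1 member was called, 1.15% against 0.9% of all genes (0.619% lower). It was TEA014284, lower on Sp.NK with 0.473, 1.10 and 0.845 FPKM, against 3.98, 3.61 and 3.18 FPKM on U.NK (log2 fold change -2.14 ± 0.39 SE, adjusted p = 0.0144 with edgeR). The groups did not overlap, but the call was lost without Sp.NK replicates 1 (adjusted p = 0.102 with edgeR) or 3 (0.0908) or U.NK replicate 2 (0.0719). In “1601” this gene was therefore low on both sides of the divided root system and high in both undivided treatments. The difference between genotypes in this response called 0 members with edgeR, against 0.231% of all genes. At an unadjusted p under 0.05 there were 18 members, 20.7% against 12% of all genes, and DESeq2 called 5 (6.02% against 1.9%) and limma voom 20 (23% against 13.5%).

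Between the sides of the same plants, few members differed. On Sp.NK against Sp.SK in “1511”, 0 members were called by edgeR, DESeq2 or limma voom, against 0.0% of all genes with edgeR, and 0 members had an unadjusted p under 0.05. In “1601” 1 member was called, 1.15% against 1.34% of all genes (1.31% higher). This was TEA027324, with 6.97, 6.59 and 5.32 FPKM on Sp.NK, against 2.23, 2.96 and 3.20 FPKM on Sp.SK (log2 fold change 1.18 ± 0.28 SE, adjusted p = 0.0411 with edgeR). It has 19 exons and also carries a U-box domain. The groups did not overlap, and the call was lost without Sp.NK replicates 1 or 2 or any of the Sp.SK libraries (highest adjusted p 0.237). It was also lost with the replicate number as a block (0.0632). The AMT member TEA024685 had 4.09, 3.22 and 3.56 FPKM on Sp.NK, against 1.63, 1.67 and 0.780 FPKM on Sp.SK in “1601”, with no overlap, but was not called (1.42 ± 0.37 SE, adjusted p = 0.0616 with edgeR). TEA003718 was not called between the sides in either genotype (adjusted p = 1.0 in “1511” and 0.923 in “1601” with edgeR), with log2 differences of 0.08 ± 0.62 SE and -0.40 ± 0.62 SE.

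**Figure D4:**
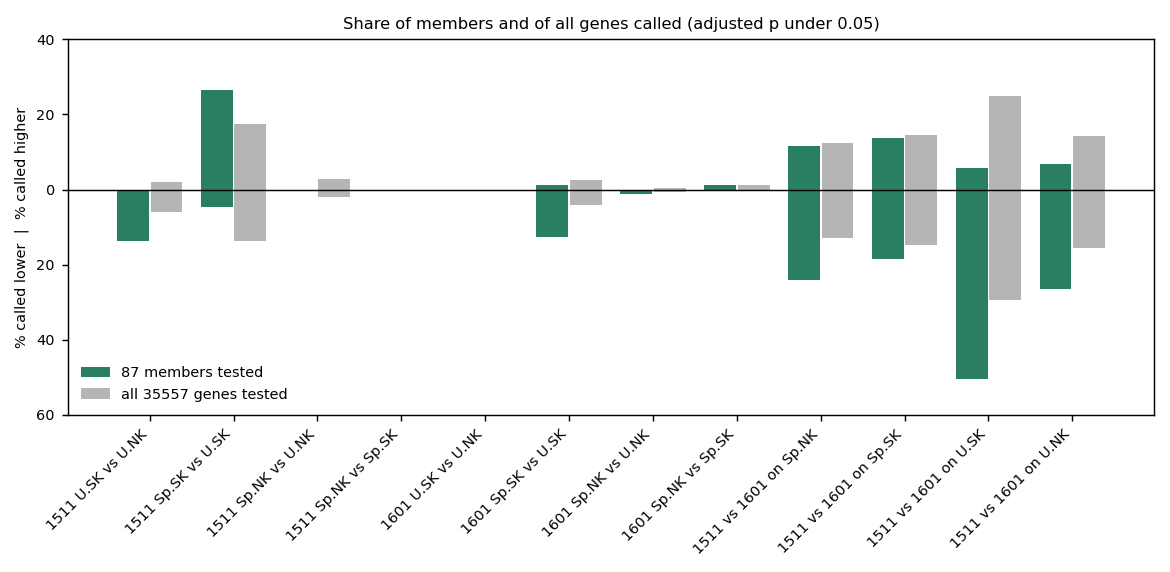
Percent of the 87 members tested (green) and of all 35557 genes tested (grey) called higher (above 0) or lower (below 0) in 12 comparisons. The members' bars reach furthest below 0 for “1511” against “1601” on U.SK, at 50.6% against 29.4% of all genes.

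The genotype comparisons gave the most calls. On Sp.NK, 10 members were higher and 21 lower in “1511” than in “1601”, 35.6% of the members against 25.5% of all genes. On Sp.SK, 12 were higher and 16 lower, 32.2% against 29.5%. On U.SK, 5 were higher and 44 lower, 56.3% against 54.3%, and on U.NK, 6 were higher and 23 lower, 33.3% against 29.8%. The total share was thus near the background on 3 of the 4 conditions. The direction was uneven on more than 1 condition. On U.SK 50.6% of the members were lower in “1511” against 29.4% of all genes, and 5.75% were higher against 24.8%. On U.NK 26.4% of the members were lower against 15.5% of all genes, and 6.9% were higher against 14.3%. On Sp.NK 24.1% were lower against 13%, and 11.5% were higher against 12.4%. The shares lay closer on Sp.SK, with 18.4% lower against 14.8% and 13.8% higher against 14.6%. The median log2 fold change on U.SK was -1.01 over the members tested and -0.08 over all genes. These comparisons share no library with each other, but that on U.SK uses the U.SK libraries of the comparisons within each genotype.

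Called in the same direction on all 4 conditions were 17 members, 13 lower in “1511” (14.9% of the members, against 7.08% of all genes) and 4 higher (4.6% against 6.99%). Some of these were differences in level between genes expressed in both genotypes. TEA000295 (scaffold 1268) had 6.25 to 9.41 FPKM in the 12 libraries of “1511” (median of 242 counts), against 14.3 to 22.1 FPKM in those of “1601” (median of 637 counts), without overlap. Its log2 fold change was between -1.35 on U.SK and -1.18 on Sp.NK, with adjusted p of at most 1.08e-05 in edgeR. TEA021139 (scaffold 17) was the reverse, with 6.95 to 12.6 FPKM in “1511”, against 2.65 to 7.64 FPKM in “1601”. TEA012189 had 2.88 to 8.04 FPKM in “1511”, against 1.32 to 3.08 FPKM in “1601”. On U.SK the call of TEA021139 (0.72, adjusted p = 0.0148 with edgeR) was lost without U.SK replicate 2 of “1601” (0.0852). That of TEA012189 (0.74, adjusted p = 0.0121 with edgeR) was lost without U.SK replicate 1 of “1601” (0.0743) or U.SK replicate 3 of “1511” (0.0645).

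Other members were read almost only in 1 of the genotypes. By a limit set after their values were seen, 2 members had at most 3 counts in every library of “1601” and a median of at least 10 in “1511”, 2.3% of the members against 2.06% of all genes. TEA004013 (scaffold 295, bases 2434213 to 2447021, minus strand, 6 exons) had 20 to 107 counts in the libraries of “1511”, against 0 in all 12 libraries of “1601”. TEA013313 (scaffold 478) had 3 to 32 counts in “1511”, against at most 1 in “1601”. With the genotypes exchanged, 4 members met the limit, 4.6% against 2.35% of all genes. Of these, a newly assembled POT gene on scaffold 3533 (bases 1377066 to 1378280) had at most 1 count in “1511”, against 56 to 119 in “1601”. TEA004878 (scaffold 2601, bases 380832 to 385148) had at most 1 count in “1511”, against 29 to 113 in “1601”. A newly assembled POT gene on scaffold 13759 (bases 256831 to 259966) had 0 counts in all libraries of “1511”, against 18 to 67 in “1601”, and TEA000005 had 0 to 3 counts in “1511”, against 6 to 35 in “1601”.

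TEA007443 and TEA032025 were close to this pattern, with at most 5 and 6 counts in “1511”, against 35 to 79 and 13 to 99 in “1601”. All of these 8 members were called on all 4 conditions with every library left out in turn. Because reads were aligned to a single reference genome, a gene that is missing from a clone, one that differs in sequence and one that is not transcribed cannot be told apart here. TEA016631 differed mainly in the undivided treatments. It had 0.0404, 0.0381 and 0.0625 FPKM on U.SK and 0.0498, 0 and 0.225 FPKM on U.NK in “1511”, against 1.88, 1.89 and 2.10 FPKM and 3.78, 2.27 and 3.63 FPKM in “1601” (adjusted p = 0.000758 on U.SK and 0.000602 on U.NK with edgeR). On Sp.SK its libraries overlapped between the genotypes.

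**Figure D5:**
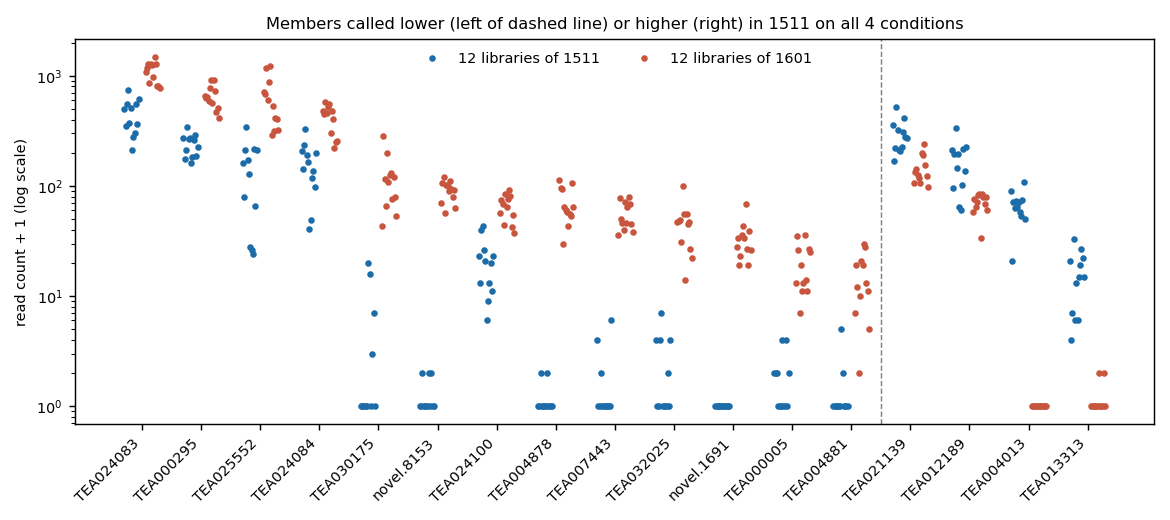
Read counts plus 1 on a log axis (y) of the 17 members called in the same direction on all 4 conditions (x), with the 12 libraries of “1511” (blue) left of those of “1601” (red) for each gene. The 13 members lower in “1511” stand left of the dashed line and the 4 higher ones right of it, and TEA004013 has 0 counts in all libraries of “1601”.

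The remaining genes that the comparisons between genotypes single out were TEA029266, TEA028859, TEA010013 and a newly assembled POT gene on scaffold 5816 (bases 30733 to 34654). TEA029266 was higher in “1511” on Sp.NK, with 3.02, 1.39 and 2.42 FPKM against 0.242, 0.356 and 0.748 FPKM in “1601”, and on Sp.SK, with 0.592, 2.69 and 1.22 FPKM against 0.0282, 0.441 and 0.180 FPKM. These 2 calls were kept in 2 and 3 of the 6 fits without 1 library. On Sp.SK the call was lost without Sp.SK replicate 2 of “1511” or Sp.SK replicates 1 or 3 of “1601”, and on Sp.NK without Sp.NK replicates 1 or 3 of “1511” or 1 or 2 of “1601”, with the highest adjusted p at 0.108. The newly assembled gene was higher in “1511” on U.NK, with 1.14, 0.452 and 1.51 FPKM against 0.276, 0.205 and 0.156 FPKM in “1601” (2.26 ± 0.60 SE, adjusted p = 0.00674 with edgeR), a call kept without any library. TEA010013 on U.NK and TEA028859 on Sp.SK were kept in 1 and 3 of 6 fits. TEA028859 overlaps TEA028848 on the opposite strand, which had a mean of 10.4 CPM, against 7.21 CPM for TEA028859 itself.

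Neighbouring copies on a scaffold sometimes shared a pattern and sometimes did not. On scaffold 1689, TEA024100, TEA024084 and TEA024083 lie within bases 1857123 to 2034391 and were all lower in “1511” than in “1601” on all 4 conditions. TEA024083 had 6.54 to 13 FPKM in “1511”, against 16.1 to 23.4 FPKM in “1601”, and TEA024084 had 2.40 to 8.97 FPKM, against 9.75 to 18.2 FPKM. For TEA024100 the call was lost on Sp.NK without Sp.NK replicates 1 or 2 of “1511” (adjusted p = 0.0783 and 0.0907 with edgeR) and on Sp.SK without Sp.SK replicate 2 of “1601” (0.0659). On scaffold 2601, TEA004878 and TEA004881 were both nearly without reads in “1511”, the second with at most 4 counts against 1 to 29 in “1601”. On scaffold 2205, TEA005583 and TEA005580 lie 16512 bases apart and had means of 4.79 and 4.64 FPKM. TEA005583 had 5.39, 5.03 and 4.79 FPKM on Sp.SK, against 2.37, 1.51 and 2.13 FPKM on U.SK in “1511”, while TEA005580 had 5.70, 5.01 and 4.51 FPKM on Sp.SK, against 3.63, 3.12 and 4.03 FPKM on U.SK.

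Other neighbours differed widely in level. TEA017621 had a mean of 46.5 FPKM and TEA017620 on the same scaffold 0.0631 FPKM. TEA024019 had 48.5 FPKM and TEA024022 had 4.37 FPKM. In the largest group, 5 POT models on scaffold 118, only TEA029267 at 9.53 and TEA029266 at 1.29 FPKM passed the filter, and TEA029262, TEA029270 and TEA029260 had at most 0.106 FPKM. The newly assembled gene on scaffold 3533, which was read almost only in “1601”, lies 1053 bases from TEA003888, the second highest POT member, on the opposite strand.

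Of the other genes of nitrogen uptake and assimilation, 139 were listed by 11 sets of Pfam domains and 105 were tested. In “1511” 14 of them (13.3%) were lower and 0 higher on U.SK than on U.NK, with a median of 0.00, against 5.88% lower and 1.96% higher over all genes. On Sp.SK against U.SK in “1511” 25 (23.8%) were higher and 16 (15.2%) lower, with a median of -0.02, against 17.4% and 13.8% of all genes. In “1601” 1 (0.952%) was higher and 5 (4.76%) were lower on Sp.SK relative to U.SK, against 2.58% and 4.24% of all genes. These shares of all genes are the background of the counts for each list, most of which hold fewer than 10 genes. The NAR2 list, the partner protein of high-affinity nitrate transporters, had 3 genes tested, with 2 higher on Sp.SK relative to U.SK in “1511” and 1 lower on U.SK than on U.NK. Its most abundant gene TEA007227, named after its values were seen, had 57.4, 67.9 and 72.7 FPKM on U.SK in “1511”, against 458, 145 and 635 FPKM on U.NK, and again U.NK replicate 2 was the lowest. Its log2 fold change was -2.66 (adjusted p = 0.00357 with edgeR), and on Sp.SK it had 890, 419 and 260 FPKM.

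Glutamine synthetase, which fixes ammonium into glutamine, had 9 genes tested, of which 4 (44.4%) were higher and 0 lower on Sp.SK relative to U.SK in “1511”, against 17.4% and 13.8% of all genes, and 3 (33.3%) were lower and 0 higher on U.SK than on U.NK, against 5.88% and 1.96%. In “1601” 0 of the 9 were called in either comparison. Of all genes there, 0.0% were called on U.SK against U.NK. On Sp.SK against U.SK 2.58% were higher and 4.24% lower. The difference between genotypes in Sp.SK against U.SK called 1 of the 9 higher, 11.1% against 9.15% of all genes. In U.SK against U.NK it called 0. The oligopeptide transporters (OPT), a family unrelated to POT in sequence, had 21 genes tested. In “1511” 7 (33.3%) were higher and 2 (9.52%) lower on Sp.SK relative to U.SK, against 17.4% and 13.8% of all genes. On U.SK 5 (23.8%) were lower and 0 higher than on U.NK, against 5.88% and 1.96%. In “1601” 0 were higher and 3 (14.3%) lower on Sp.SK relative to U.SK, against 2.58% and 4.24%. The difference between genotypes in Sp.SK against U.SK called 7 (33.3%) higher and 0 lower, against 9.15% and 4.86%. Of 4 nitrite and sulfite reductase genes, 2 were higher on Sp.SK relative to U.SK in “1511” and 1 was lower on U.SK than on U.NK. In “1601” 1 of the 4 was higher and 0 lower on Sp.SK relative to U.SK. The median log2 fold change there was 0.43, against 0.51 in “1511”. In that response the difference between genotypes called 0 of the 4. Nitrate reductase had 3 genes tested, of which 0 were called in these comparisons in either genotype. Of 38 RWP-RK genes, a family that holds the nitrate-responsive NLP regulators, 5 (13.2%) were higher and 8 (21.1%) lower on Sp.SK relative to U.SK in “1511”, against the 17.4% and 13.8% of all genes. The counts of the remaining lists on Sp.SK against U.SK in “1511” were 1 higher and 2 lower of 8 chloride channel family (CLC) genes, 1 and 0 of 4 SLAC1 family anion channel genes, 0 and 1 of 4 glutamate synthase genes, 2 and 3 of 7 glutamate dehydrogenase genes, and 1 and 0 of 4 asparagine synthase genes, too few to set against the background. Nitrate transporters of the NRT2 type share a domain with many other transporters and were not analysed here.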

How the data were processed

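The authors aligned the reads with HISAT2 (version 2.0.5 in the submitters' processing notes) to the scaffold-level tea genome and added newly assembled genes. Read counts per gene, whole numbers without normalization, are as deposited by the authors, and the program that counted them is not given in the sources used here. The deposited FPKM table equals the count divided by gene length and by 1 size per library. Annotated lengths are coding lengths. The families and lists to describe were picked with earlier results of these data known, and their members then follow from annotation.

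The fits were made with edgeR 4.0.16 in R 4.3.3 (filterByExpr, TMM, 8 group means on 24 libraries, 16 residual degrees of freedom), and were checked on simulated data. Alternatives were DESeq2 size factors, no filter, a replicate block, limma 3.58.1 voom with quality weights, only the libraries compared (edgeR, DESeq2 1.42.0) and each library left out. Named were all tested AMT members, the 10 highest POT members and, per comparison, up to 3 called POT members in each direction with no overlap and a mean of at least 1 CPM, besides neighbours. Other members are named from their calls. Same-numbered libraries deviated together only for Sp.NK and U.NK of “1511” (correlations 0.125, 0.498 and 0.609). These are different treatments, not paired by the design, and the block called 0 members there, as without it. For Sp.NK and Sp.SK, the sides of the same plants, the correlations were 0.0499, -0.0677 and -0.288 in “1511”. In “1601” they were -0.0514, 0.0157 and -0.0208. The deposited columns of sample comparisons were not used.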

Additional observations from a re-analysis of the deposited data

Results flagged for a closer look

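The results below stand out because the test of the difference itself, the response of “1511” minus that of “1601” with edgeR on 24 libraries, passed an adjusted p under 0.05 for the member. For the response to U.SK against U.NK this was TEA003718 alone, with a log2 difference of -5.26. That call was kept in only 4 of 12 fits without 1 library, and edgeR on only the libraries compared did not make it. For the response to Sp.SK against U.SK, the values that held when any of the 12 libraries was left out were 5.74 for TEA024273, 4.78 for TEA004575, 4.69 for TEA003718, 4.61 for TEA026573, 3.21 for TEA028859, 2.88 for TEA020860, 2.68 for TEA003398, 2.11 for TEA013384 and 1.70 for TEA005583. The calls that did not hold throughout were 4.96 for TEA029267 (kept in 4 of 12 fits), 4.87 for TEA018283 (10 of 12), 1.67 for TEA014284 (2 of 12) and 1.64 for TEA024100 (5 of 12). For TEA024151 (6.72, 3 of 12) and TEA030175 (-7.06, 3 of 12), a group in “1511” had 0 counts in all libraries, so the fitted values depend on the prior count and are no bounds. TEA003398 rests on 3 to 26 counts per library of “1511”. TEA028859 and TEA026573 overlap genes on the opposite strand. The causes of these differences were not tested.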

How the results depend on the processing

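No call changed direction under the alternatives tried. The number of members called moved with the tool, with the libraries fitted and with single libraries. Limma voom with quality weights called 30 on U.SK against U.NK in “1511” (34.5% of the members, against 37.9% of all genes). It called 24 on Sp.NK against U.NK there (27.6% against 31.6%). In “1601” it called 35 on Sp.SK against U.SK (40.2% against 35.5%) and 1 on U.SK against U.NK (1.15% against 0.197%). It called 13 there on Sp.NK against U.NK (14.9% against 12.8%) and 13 on Sp.NK against Sp.SK (14.9% against 8.61%). It called 46 between genotypes on Sp.SK and 57 on U.NK, and 20, 28 and 20 for the genotype differences in U.SK against U.NK, Sp.SK against U.SK and Sp.NK against U.NK. DESeq2 on only the libraries compared called 5 on Sp.NK against U.NK in “1511”, 1, 19, 13 and 4 in “1601” (U.SK against U.NK, Sp.SK against U.SK, Sp.NK against U.NK, Sp.NK against Sp.SK), and 5, 24 and 5 for the 3 differences. EdgeR on only the libraries compared called 0 on U.SK against U.NK in “1511”, 0 for its difference between genotypes and 7 on Sp.NK against U.NK in “1601”. The replicate block called 0 on Sp.NK against Sp.SK in “1601”, against 1 without it, and elsewhere stayed within 1.5 times (10 on U.SK against U.NK and 26 on Sp.SK against U.SK in “1511”). Sp.NK and Sp.SK are sides of the same plants, but no source says that their libraries of the same number came from the same box. With each library left out in turn, the counts in “1511” ran from 2 to 17 on U.SK against U.NK, 16 to 30 on Sp.SK against U.SK and 0 to 13 on Sp.NK against U.NK. In “1601” they ran from 4 to 7 on Sp.SK against U.SK and 0 to 1 on Sp.NK against U.NK and Sp.NK against Sp.SK. Between genotypes they ran from 21 to 26 on Sp.NK, 23 to 27 on Sp.SK, 43 to 48 on U.SK and 23 to 31 on U.NK, and for the 3 differences from 0 to 13, 9 to 21 and 0 to 4 (4 without U.NK replicate 3 of “1511”). The shares of all genes in these fits without a library are not given here. The share held by the 10 highest POT members was 61.01% to 63.1% under other pseudocounts or a filter. Low depth limits members with few counts, and the fits with another tool also changed the weights or the libraries used, so the cause of their spread was not tested.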
